A study of Mus musculus with 7 samples.

Results

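Genes of neurosteroid metabolism were examined in forebrain RNA of *Lhx6* mutant mice at postnatal day 15. The set holds 9 genes chosen by name out of 47729 genes counted: *Star*, *Tspo*, *Cyp11a1*, *Srd5a1*, *Srd5a3*, *Akr1c14*, *Akr1c18*, *Cyp7b1* and *Hsd11b1*. Rows of the count table were found through the gene symbol, and each symbol gave 1 row. The names were picked with the difference between the genotypes known, that is, the choice was made on the same mutant-over-control values that are given below. Those values are therefore a description of the 9 genes. Calls from the fit across all genes are given only to place them among the others.

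The study asked whether the number of cortical interneurons that survive after birth depends on the brain around them, and the forebrains of mutants were profiled to describe that surrounding. LHX6 is a transcription factor that interneurons born in the medial ganglionic eminence (MGE) need for their development. Control samples came from Lhx6+/- mice (n = 4) and mutant samples from Lhx6-/- mice (n = 3), on an F1(C57BL/6 X 129Sv) background, and every sample was a pool of forebrains from 2 animals. Controls carried 1 copy of the same null allele, Lhx6tm2Vpa, so the comparison is between heterozygous and homozygous mice and includes no wild type. The mutants carry only the null allele, throughout the body and from the start of development. The labels mark the samples as replicates of a genotype without giving litters, so p-values measure the spread between pools.

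Neurosteroids are steroids made or modified in the brain. Cholesterol carried into mitochondria is cut to pregnenolone, which is oxidised to progesterone, and progesterone is then reduced in 2 steps, by a 5α-reductase and a 3α-hydroxysteroid dehydrogenase, to allopregnanolone. Allopregnanolone strengthens the action of GABA at GABA-A receptors, most of all at those with a δ subunit, while other branches inactivate progesterone, hydroxylate oxysterols and dehydroepiandrosterone, or regenerate active glucocorticoid.

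Expression is given as normalized counts, which are RSEM's expected counts divided by the effective library size and brought to the mean size of the 7 libraries. Libraries summed to between 32556183 and 38068931 counts, and a floor of 3 counts corresponded to 0.0788 to 0.0921 CPM, a count scaled by the library's total. *Lhx6* itself ran from 476 to 615 normalized counts in controls and from 70.1 to 76.6 in mutants. The direction is that of the labels, but the mutant mean was still 13.6% of the control mean. The paper describes *Lhx6* as absent from the mutant samples. The source of the remaining counts was not tested. On the first principal component, with 39.6% of the variance, libraries 2, 3 and 5 stood apart from libraries 10 to 13, and the genotypes separated on the next one, with 23.4%. The columns give only a library number, so what the 2 runs of numbers stand for is not known here, and differences are also given within each run. Each run held both genotypes, with control libraries 2 and 3 beside mutant library 5, and control libraries 10 and 11 beside mutant libraries 12 and 13. Where the value of every sample is given, the order is library 2, 3, 10, 11 for controls and library 5, 12, 13 for mutants.

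All 9 genes passed the filter of at least 10 counts in at least 3 libraries, *Akr1c18* through the control libraries alone. By edgeR's quasi-likelihood fit over 19684 genes, with an adjusted p of 0.05 or less as the threshold, 1 of the 9 was called lower in mutants (*Akr1c18*), 1 higher (*Hsd11b1*) and 7 were not called. Over all genes tested the same rule called 4.85%, of which 2.97% were higher and 1.87% lower. The libraries of the genotypes did not overlap for 4 of the 9 genes, *Akr1c18* and *Star* on the lower side and *Tspo* and *Hsd11b1* on the higher, against 19.7% of all genes tested. Nothing is read from these shares, because the genes were chosen with the contrast known. The median log2 fold change of the 9 genes was -0.033, beside -0.013 for all genes tested.

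**Figure D1:**
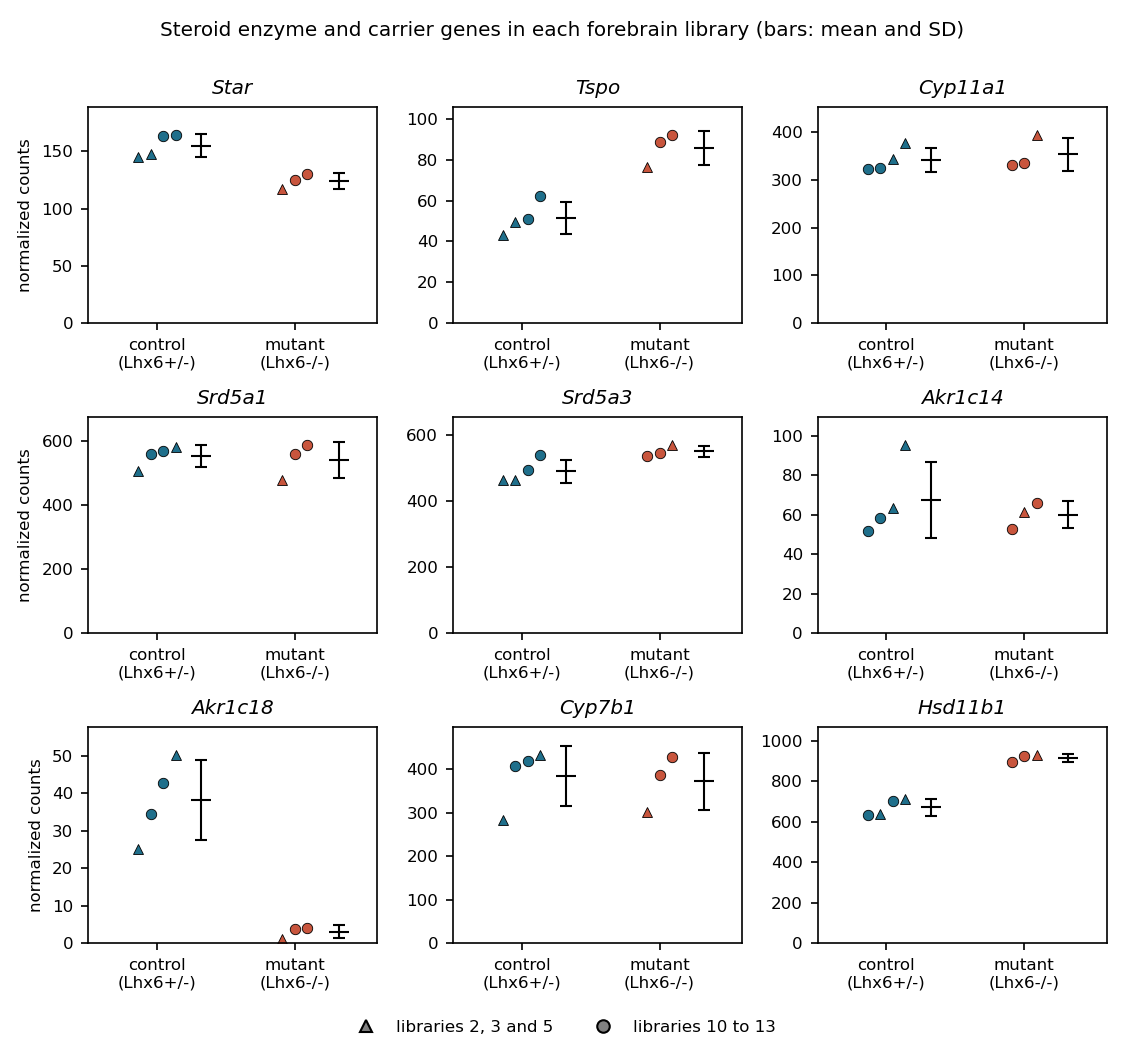
Normalized counts (vertical axes, each from 0) of the 9 genes in the 4 control and 3 mutant libraries, with triangles for libraries 2, 3 and 5, circles for libraries 10 to 13, and bars for the mean and SD. Control and mutant points are separate for *Star*, *Tspo*, *Akr1c18* and *Hsd11b1* and overlap for the other 5 genes.

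The 9 genes lie on 7 chromosomes in GRCm38, the build of the deposited annotation. *Akr1c14* (chr13:4049011-4090422, plus strand), *Akr1c18* (chr13:4132615-4150654, minus strand) and *Srd5a1* (chr13:69573449-69611442, minus strand) share chromosome 13. *Star* (chr8:25808474-25814723, plus), *Tspo* (chr15:83563592-83574203, plus) and *Cyp11a1* (chr9:58006411-58027023, plus) are the mitochondrial genes of the set. *Srd5a3* lies at chr5:76140271-76155504 (plus), *Cyp7b1* at chr3:18071950-18243338 (minus) and *Hsd11b1* at chr1:193221634-193264075 (minus). All are protein-coding, and counts are sums over their exons.

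Levels of different genes can be compared only per length, as TPM, here the counts over the union of each gene's exons, scaled to the same total in every library. In controls the highest levels were those of *Srd5a1* (16.6 ± 1.29 TPM, SD, n = 4), *Cyp7b1* (15.3 ± 2.38) and *Hsd11b1* (13.6 ± 1.21), whose ranges overlapped from neighbour to neighbour. *Srd5a3* (9.10 ± 0.456 TPM) and *Cyp11a1* (6.16 ± 0.659) followed, each apart from the next gene in all 7 libraries. The lower end was *Star* at 4.79 ± 0.127 TPM, *Tspo* at 4.21 ± 0.541, *Akr1c18* at 2.72 ± 0.757 and *Akr1c14* at 1.96 ± 0.603, and neighbours in this order overlapped. By this length the reductase that starts the route to allopregnanolone had the highest mean, and the 2 family 1C aldo-keto reductases the lowest. In mutants *Hsd11b1* moved to the first place (19.0 ± 1.32 TPM, n = 3) and *Akr1c18* to the last (0.211 ± 0.119). The order depends on the length used: with the mean transcript length in place of the exon union, the control level of *Hsd11b1* was 27.3 TPM, that of *Srd5a3* 19.1, that of *Srd5a1* 14.9 and that of *Cyp7b1* 8.41.

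**Figure D2:**
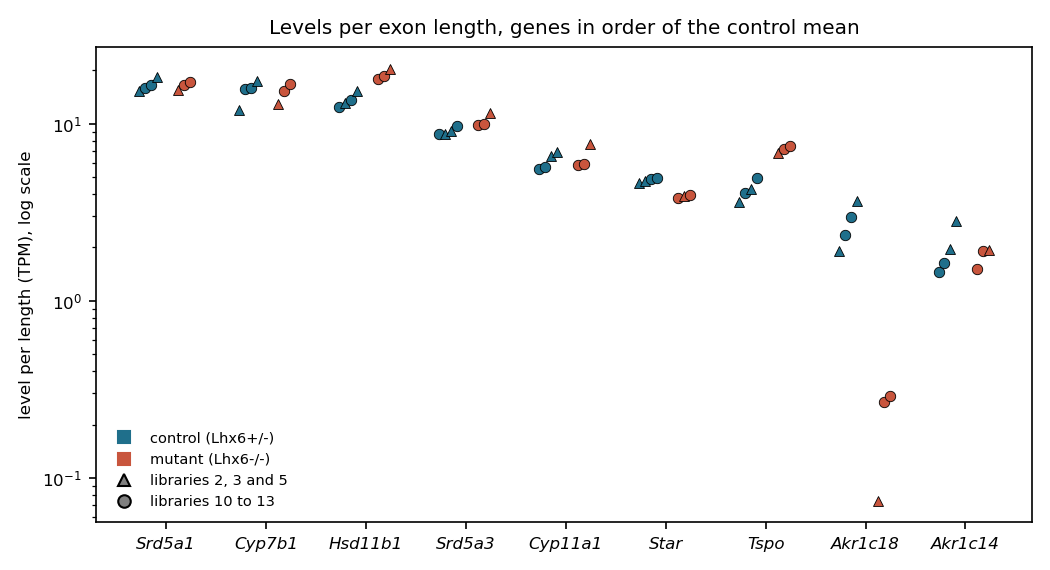
Level per exon length (TPM, log scale) of the 9 genes in each library, ordered by the control mean, with controls in blue and mutants in red. *Srd5a1* leads in controls at a mean of 16.6 TPM, and the mutant libraries of *Akr1c18* lie far below every other point.

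The delivery of cholesterol to the inner mitochondrial membrane is the entry to steroid synthesis. *Star*, which encodes the acute regulatory protein that carries cholesterol there, gave 145, 148, 164 and 164 normalized counts in controls. It gave 117, 130 and 125 in mutants, so every mutant library was below every control library. The mean was 155 ± 10.3 (SD) in controls and 124 ± 6.83 in mutants, a log2 fold change of -0.32 (SE 0.129) that was not past the threshold. Within the runs the log2 ratio of the means was -0.32 in libraries 2, 3 and 5 and -0.36 in libraries 10 to 13. *Star* shared no 36-base word, the length of a read, with any other gene, and no exon of another gene overlapped it. Its expected count was nevertheless whole in only 2 of the 7 libraries.

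*Tspo*, the translocator protein of the outer mitochondrial membrane, is also known as a marker of microglia and of vessel walls. The controls gave 49.4, 43.2, 62.4 and 50.8 normalized counts. The 3 mutant libraries gave 76.6, 92.1 and 89.0, all above the controls. The mean was 51.4 ± 8.01 in controls and 85.9 ± 8.20 in mutants, 1.67 times the control mean, with a log2 fold change of 0.74 (SE 0.188). This was not past the threshold with edgeR, but it was with DESeq2, with the stricter filter on low counts and with the library run as a term, all with a log2 fold change between 0.70 and 0.74. The within-run ratios were 0.73 and 0.68 on the log2 scale. Only 1.77% of its 36-base words occurred in another gene, and its expected counts were whole in all 7 libraries.

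Marker lists of the cells in which *Tspo* is known moved unequally. The 10 microglial markers summed to between 15193 and 15938 normalized counts in controls and between 13377 and 15454 in mutants, and edgeR called 0 of them (2 lower at an unadjusted p of 0.05 or less, and 0 adjusted calls by DESeq2 or limma-voom). The 10 endothelial markers summed to between 10027 and 11448 in controls and between 12733 and 13664 in mutants, and the 6 mural cell markers to between 9198 and 9968 and between 10575 and 12468. Both vascular sums were thus higher in every mutant library, although edgeR and limma-voom called 0 markers of either list. At an unadjusted p of 0.05 or less, 6 endothelial and 3 mural markers were higher, and DESeq2 called 4 and 2 of them. With the library run as a term, 6 endothelial and 2 mural markers were called higher and 1 microglial marker lower. Astrocyte markers summed to between 215886 and 310478 in controls and between 338598 and 395495 in mutants, with *Gfap* called higher (log2 fold change 1.95, SE 0.100, adjusted p = 7.41e-05 by edgeR). DESeq2 called 3 astrocyte markers higher, limma-voom 1 and the fit with the library run as a term 3. The difference in the astrocyte sum was carried mostly by *Slc1a2*, at 197133 ± 40280 and 267789 ± 30656 (adjusted p = 0.200 by edgeR), and by *Gfap*, at 6537 ± 491 and 25195 ± 2555. The genotypes overlapped for 6 of the 10 astrocyte markers. None of these markers was at 0 in all libraries. Their part in the values of *Tspo* was not tested.

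*Cyp11a1*, the mitochondrial enzyme that cleaves the side chain of cholesterol to give pregnenolone, was present in every library. Controls gave 344, 378, 322 and 324 normalized counts and mutants 394, 336 and 330, so the genotypes overlapped throughout. The mean was 342 ± 25.6 in controls and 354 ± 34.9 in mutants (log2 fold change 0.047, SE 0.116). Libraries 2, 3 and 5 were the 3 highest of the 7, whatever their genotype. Exons of the noncoding gene *Gm17322* on the same strand cover 3.02% of its exon length.

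The first reduction of progesterone is made by 5α-reductases. *Srd5a1*, the main such enzyme of the brain, gave 580, 504, 557 and 569 normalized counts in controls and 478, 586 and 557 in mutants. The mutant values ranged from below the lowest to above the highest control value. With means of 553 ± 33.7 and 540 ± 55.8 the log2 fold change was -0.033 (SE 0.109). Its counts carry an uncertainty of their own, since 15.5% of its 36-base words also occur in *Gm17108*, a transcript on the same strand whose exons cover 16.52% of the exon length of *Srd5a1*.

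*Srd5a3* carries the family name but is known best as the polyprenol reductase that makes dolichol for protein glycosylation. It gave 464, 465, 493 and 540 normalized counts in controls and 570, 537 and 545 in mutants. The highest control library lay just above the lowest mutant library. The mean was 490 ± 35.5 in controls and 551 ± 17.01 in mutants (log2 fold change 0.17, SE 0.0988), and the within-run ratios were 0.30 and 0.068.

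Aldo-keto reductases of family 1C take the next step or, in another branch, inactivate progesterone. *Akr1c14* encodes the 3α-hydroxysteroid dehydrogenase that turns dihydroprogesterone into allopregnanolone. It gave 63.6, 95.4, 58.5 and 51.8 normalized counts in controls and 61.3, 52.8 and 66.3 in mutants. All mutant values lay inside the control range. The mean was 67.3 ± 19.3 in controls and 60.1 ± 6.82 in mutants (log2 fold change -0.16, SE 0.244), and the sign turned to 0.054 when control library 3, the highest, was left out.

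*Akr1c18* encodes the 20α-hydroxysteroid dehydrogenase, which inactivates progesterone and is best known from the ovary. In controls it gave 25.2, 50.2, 34.5 and 42.7 normalized counts. In mutants it gave 0.958, 4.14 and 3.79. The highest mutant library was thus far below the lowest control library, and the message was nearly gone from the mutant forebrain. The mean was 38.2 ± 10.7 in controls and 2.96 ± 1.74 in mutants, with a log2 fold change of -3.64 (SE 0.477).

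Because the mutants held few counts of *Akr1c18*, the precision is best seen in the counts themselves. Rounded counts came to 151 over the 4 control libraries and to 9 over the 3 mutant libraries, which put the mutant level at 7.65% of the control level (exact 95% interval 3.43% to 14.9%, for counting error only). In libraries 2, 3 and 5 the share was 2.50%, from 1 count against 73 (0.0625% to 14.4%). In libraries 10 to 13 it was 10.3%, from 8 counts against 78 (4.29% to 21.3%). Both runs therefore showed the difference, and their intervals overlapped. *Akr1c18* was called lower in each of the 14 alternatives that tested it, with log2 fold changes from -3.94 to -3.22. The gene was chosen with this contrast known, so the repeated calls show steadiness under processing and are no separate evidence. A filter on all 7 libraries removed *Akr1c18*, since no mutant library reached 10 counts.

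Markers of the interneurons that depend on *Lhx6* were also mostly lower, and their part in the values of *Akr1c18* was not tested. Of 12 markers of parvalbumin and other MGE-derived interneurons, 9 were lower by edgeR and 1 was higher. *Pvalb*, a calcium-binding protein, fell from 931 ± 147 to 113 ± 31.2 normalized counts (log2 fold change -3.05, SE 0.219, adjusted p = 3.89e-04 by edgeR). *Sst*, the neuropeptide somatostatin, fell from 5357 ± 874 to 588 ± 70.6 (log2 fold change -3.19, SE 0.157, adjusted p = 6.37e-05 by edgeR). *Tac1*, a tachykinin precursor, was the marker called higher (0.83, SE 0.177, adjusted p = 0.0333 by edgeR). *Cox6a2* also had every mutant library above every control library, at 181 ± 18.9 and 239 ± 23.9 (0.40, SE 0.134, adjusted p = 0.152 by edgeR). With the library run as a term, 2 markers of the list were called higher and 9 lower. The list summed to between 21796 and 23979 normalized counts in controls and between 9613 and 11211 in mutants, with no marker at 0. In bulk forebrain, fewer cells of a type and less RNA per cell cannot be told apart.

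The family 1C reductases are close copies of each other, so the stretches that *Akr1c18* shares with its nearest relatives are shown, as reads inside them cannot be assigned to 1 gene. The capitals mark the longest stretch identical between the 2 genes, within 15 bases of each transcript on either side (lower case), read 5′ to 3′ from the GENCODE M21 transcripts of GRCm38. Each stretch lies in the coding part of both genes, 48 bases long between *Akr1c18* and *Akr1c14* and 56 bases long between *Akr1c18* and *Akr1cl*.
Akr1c18 against Akr1c14: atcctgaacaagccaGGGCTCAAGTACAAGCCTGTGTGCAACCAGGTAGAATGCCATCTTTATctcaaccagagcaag
Akr1c14: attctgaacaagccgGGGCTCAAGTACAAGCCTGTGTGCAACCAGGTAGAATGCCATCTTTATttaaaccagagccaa
Akr1c18 against Akr1cl: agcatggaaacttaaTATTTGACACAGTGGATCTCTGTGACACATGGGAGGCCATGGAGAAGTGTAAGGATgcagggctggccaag
Akr1cl: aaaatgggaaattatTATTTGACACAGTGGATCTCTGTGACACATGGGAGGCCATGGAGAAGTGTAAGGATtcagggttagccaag

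Such words made up a small part of the gene. Of the 36-base words of *Akr1c18*, 2.91% occurred elsewhere, 21 words in *Akr1cl* and 13 in *Akr1c14*. For *Akr1c14* the share was 6.80%, nearly all of it with *Gm18857*. *Akr1cl*, a relative on another chromosome, was at 14.2 ± 2.24 normalized counts in controls and 16.4 ± 6.17 in mutants (log2 fold change 0.21, SE 0.363, adjusted p = 0.831 by edgeR). RSEM divided some reads of *Akr1c18* between copies, as its expected count was whole in 1 of the 7 libraries.

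*Akr1c18* lies 42192 bases from *Akr1c14*, in a cluster of aldo-keto reductase genes on chromosome 13. Of its neighbours, *Akr1c14* and *Akr1e1* had counts enough to be tested, and neither was called. The next gene on the other side, *Akr1c13*, gave 3.29, 2.01, 4.80 and 6.10 normalized counts in controls and 11.5, 9.32 and 10.4 in mutants. Its mutant libraries were thus above its control libraries, opposite to *Akr1c18*, but it was under the filter on low counts and was not tested, and 31.1% of its words are shared with other genes. *Akr1c19*, *Akr1c12*, *Akr1c20* and *Akr1c21* had at most 4.79 normalized counts in any library, and *Akr1c6* was at 0 in all 7. At the far end, *Akr1e1* was at 528 ± 18.6 in controls and 447 ± 16.5 in mutants with no overlap (log2 fold change -0.24, SE 0.0927, adjusted p = 0.211 by edgeR).

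**Figure D3:**
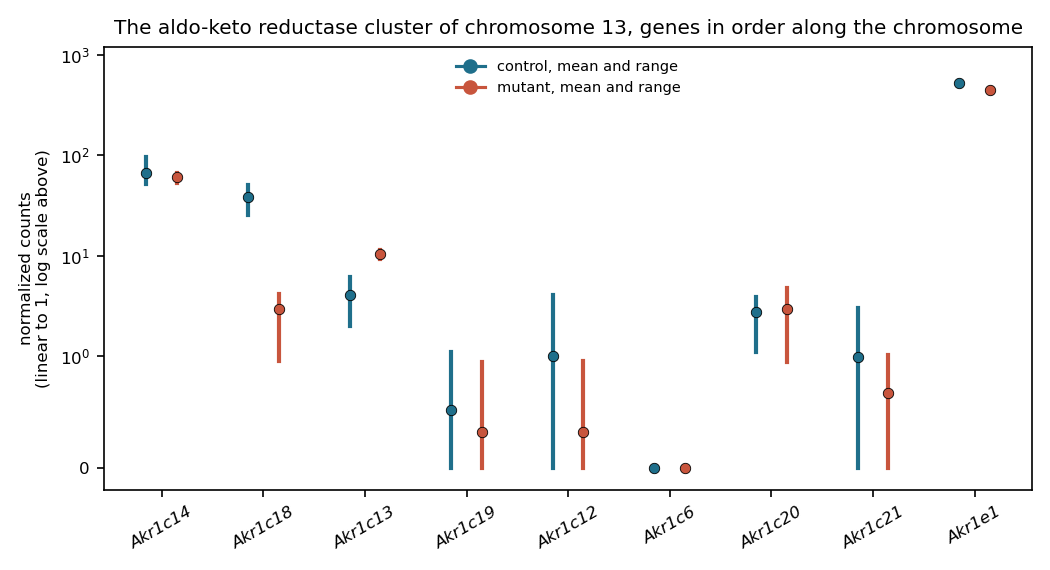
Normalized counts (linear up to 1, log scale above) of the aldo-keto reductase genes on chromosome 13 in their order along the chromosome, as the mean (point) and range (line) over 4 control libraries (blue) and 3 mutant libraries (red). The ranges of *Akr1c18* are apart, with the mutants lower, while those of *Akr1c14* overlap and those of *Akr1c13* are apart with the mutants higher.

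The promoters of *Akr1c18* and *Akr1c14* are set side by side because these neighbours differed in their values. Shown are the 250 bases before each RefSeq start on the strand of the gene (GRCm38.p6), chr13:4150647-4150896 on the minus strand for *Akr1c18* and chr13:4059341-4059590 on the plus strand for *Akr1c14*, with motif matches in capitals.
Akr1c18: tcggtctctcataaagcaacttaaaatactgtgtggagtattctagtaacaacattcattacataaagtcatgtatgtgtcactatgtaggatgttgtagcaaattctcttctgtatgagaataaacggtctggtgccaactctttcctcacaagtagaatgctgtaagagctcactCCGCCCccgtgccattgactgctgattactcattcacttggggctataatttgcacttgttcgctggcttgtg
Akr1c14: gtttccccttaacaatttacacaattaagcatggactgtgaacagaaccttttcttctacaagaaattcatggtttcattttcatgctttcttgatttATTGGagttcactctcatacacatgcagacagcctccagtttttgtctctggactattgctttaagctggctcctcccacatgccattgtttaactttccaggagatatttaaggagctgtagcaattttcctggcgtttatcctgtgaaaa

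The windows of 250 bases before to 50 bases after the start were searched on both strands for 6 motifs. The cyclic AMP response element was searched as TGACGTCA. For the AP-1 site, which binds dimers of Fos and Jun proteins, the letters were TGANTCA. The site of steroidogenic factor 1, a regulator of steroid genes in gonads and adrenals, was searched as TCAAGGTCA. A GC box was taken as GGGCGG and the box named for its letters as CCAAT. The TATA box, which sets the start of many genes, was searched as TATAAA. The *Akr1c18* window held a GC box on the opposite strand, at -73 to -68 from the start, a motif found in 35.63% of 32817 promoter windows. The *Akr1c14* window held a CCAAT box on the opposite strand, at -152 to -148, a motif of 37.39% of windows. Neither held the other letters searched, of which the rarest, those of steroidogenic factor 1, occur in 0.42% of windows and the most frequent, the TATA box, in 13.62%.

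The last pair of genes acts on oxysterols and on glucocorticoids. *Cyp7b1* encodes the 7α-hydroxylase of oxysterols and dehydroepiandrosterone. It gave 283, 432, 417 and 407 normalized counts in controls and 301, 429 and 386 in mutants. The genotypes overlapped, and the lowest library of each belonged to libraries 2, 3 and 5. The mean was 385 ± 68.6 in controls and 372 ± 65.1 in mutants (log2 fold change -0.050, SE 0.180).

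*Hsd11b1* encodes the type 1 11β-hydroxysteroid dehydrogenase, which regenerates corticosterone from its inactive keto form. Controls gave 714, 637, 701 and 631 normalized counts and mutants 929, 927 and 893. Every mutant library was above every control library, and the 3 mutant libraries lay close together. The mean was 671 ± 43.0 in controls and 916 ± 20.4 in mutants, 137% of the control mean, with a log2 fold change of 0.45 (SE 0.0864). The log2 ratio was 0.46 in libraries 2, 3 and 5 and 0.45 in libraries 10 to 13. The size was steady, but the call was lost in 5 of 7 fits with a library left out, with a log2 fold change of 0.47 without control library 10, 0.42 without control library 11, 0.45 without mutant library 5, 0.44 without mutant library 12 and 0.47 without mutant library 13. No 36-base word of *Hsd11b1* occurs in another gene.

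Markers of the other cell types that a forebrain holds gave the following sums. The 8 markers of cortical excitatory neurons, which mark the labelled tissue, summed to between 83912 and 95796 normalized counts in controls and between 93157 and 112661 in mutants, with 1 called lower and 1 higher. The 10 oligodendrocyte markers summed to between 246021 and 323818 in controls and between 176138 and 223456 in mutants, lower in every mutant library. Of these, edgeR called 3 lower, DESeq2 5, and the fit with the library run as a term all 10. Meningeal fibroblast markers (8311 to 11457 against 8498 to 10844) and choroid plexus markers (4680 to 9987 against 2321 to 7685) overlapped. No marker was at 0 in all libraries, and the part of these cells in the values of *Hsd11b1*, *Star*, *Cyp7b1* or the other genes was not tested.

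**Figure D4:**
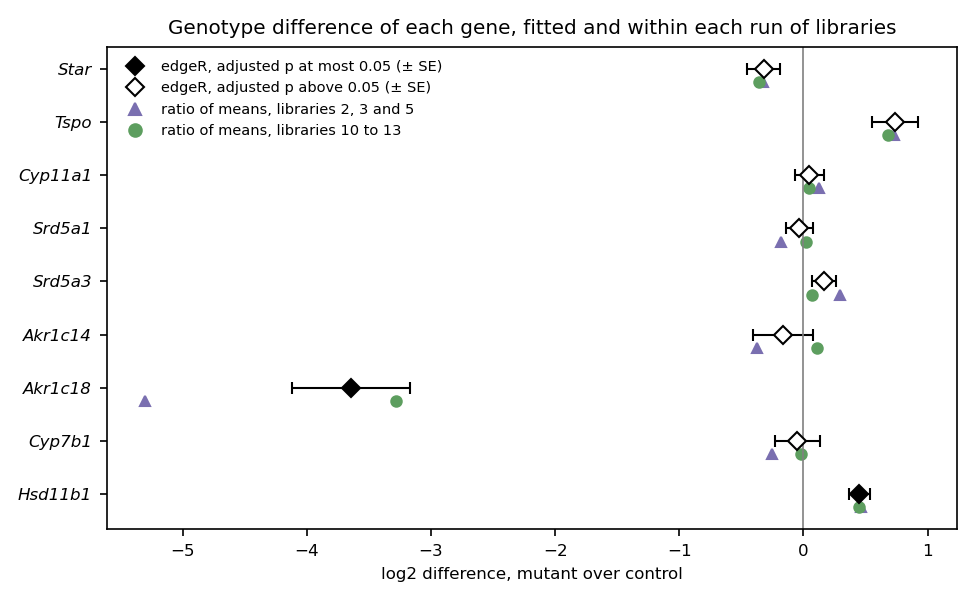
Log2 difference of mutant over control for the 9 genes, as edgeR's log2 fold change with its SE (diamonds, filled where past an adjusted p of 0.05) and as the log2 ratio of mean normalized counts within libraries 2, 3 and 5 (triangles) and within libraries 10 to 13 (circles). *Akr1c18* lies at -3.64 and *Hsd11b1* at 0.45, and for *Star*, *Tspo* and *Hsd11b1* both runs give nearly the same ratio.

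The genes around *Hsd11b1* in the glucocorticoid pathway gave smaller differences. *H6pd*, which supplies the NADPH that the enzyme needs, was at 359 ± 48.6 normalized counts in controls and 419 ± 7.43 in mutants (log2 fold change 0.22, SE 0.127, adjusted p = 0.418 by edgeR). The glucocorticoid receptor gene *Nr3c1* went from 3228 ± 364 to 2820 ± 296 (-0.20, SE 0.112, adjusted p = 0.420 by edgeR), and it was called lower with the library run as a term (-0.24, adjusted p = 0.0308). *Hsd11b2*, which encodes the enzyme of the opposite reaction, was at 4.79 normalized counts or fewer in every library and was not tested.

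Each of the 2 called genes was set beside the 3 genes whose log2 CPM followed it most closely over the 7 libraries, as a description. For *Akr1c18* these were *Camk2n1* (Pearson r = 0.996), an inhibitor of the calcium- and calmodulin-dependent kinase, the sterol transporter gene *Npc1l1* (0.993) and the deubiquitinase gene *Usp25* (0.992). *Camk2n1* went from 47819 to 26454 normalized counts on average and *Npc1l1* from 112 to 49.9. For *Hsd11b1* they were *Fam19a4* (0.988), *Arsj* (0.988) and *Uba1* (0.987). *Arsj*, an arylsulfatase gene, ran from 33.5 to 43.9 in controls and from 129 to 143 in mutants. The points share the genotype difference, the libraries and their depth.

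A list of 93 other genes of steroid synthesis, breakdown and response was then read by role. Of these, 64 were tested, 27 were under the filter on low counts, 6 of them at 0 in all libraries, and *Hsd17b8* and *Sts* were not analysed here. Of those tested, 1 was lower in mutants and 0 were higher by edgeR at an adjusted p of 0.05 or less, where 1.87% and 2.97% of all genes tested were. At an unadjusted p of 0.05 or less by edgeR, 8 of the 64 were lower and 5 higher. Over all 19684 genes tested, 3590 were at or under that value. In the list, DESeq2 called 3 lower and 3 higher, and limma-voom called 1 lower and 0 higher. The fit with the library run as a term called 7 lower and 3 higher. Over all genes, DESeq2 called 1696 of 33623 tested, limma-voom 963 of 19684 and the fit with the run term 2205 of 19684. The median log2 fold change of the 64 was -0.022.

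The gene called was *Paqr7*, which encodes the membrane progestin receptor alpha. It gave 2500, 2621, 2377 and 2530 normalized counts in controls and 1839, 2013 and 1773 in mutants. The genotypes did not overlap. The mean fell from 2507 ± 101 to 1875 ± 124 (log2 fold change -0.42, SE 0.0760, adjusted p = 0.0176 by edgeR). It was called in 12 of 15 alternatives, with log2 fold changes from -0.47 to -0.38 and adjusted p-values from 7.44e-05 to 0.113, and not without control library 11, mutant library 5 or mutant library 13. Among its relatives, *Paqr8* and *Paqr5* had mutant libraries above the controls. The log2 fold change was 0.23 for *Paqr8* (SE 0.0738, adjusted p = 0.133 by edgeR and 0.0162 by DESeq2). It was 0.98 for *Paqr5* (SE 0.395, adjusted p = 0.234 by edgeR and 0.0326 with the library run as a term). *Paqr4* had mutant libraries below the controls (-0.23, SE 0.0834, adjusted p = 0.184 by edgeR and 0.0262 with the run term). *Paqr6* and *Paqr9* overlapped. The nuclear progesterone receptor gene *Pgr* overlapped as well (-0.16, SE 0.157, adjusted p = 0.669 by edgeR).

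**Figure D5:**
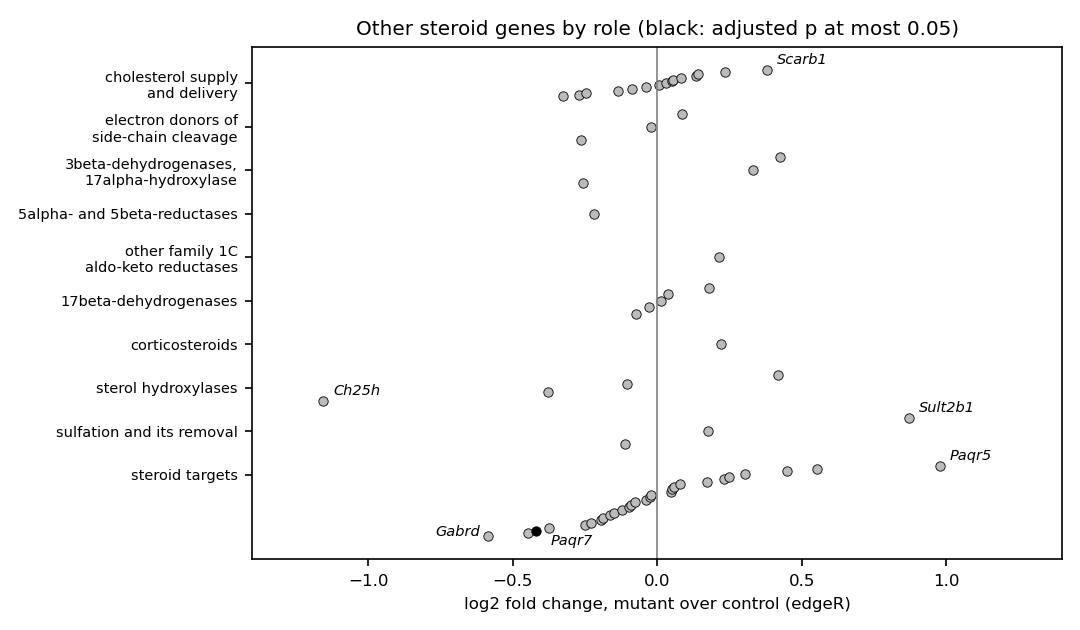
Log2 fold change of mutant over control (edgeR) for the 64 tested genes of the wider steroid pathway, each point a gene, in rows by role. *Paqr7* (black) is the gene past an adjusted p of 0.05, at -0.42, and *Ch25h*, *Sult2b1* and *Paqr5* lie farthest from 0.

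In cholesterol supply and delivery, all 15 genes were tested. The lipoprotein receptor gene *Scarb1* gave 1314, 1183, 1071 and 1167 normalized counts in controls and 1680, 1487 and 1450 in mutants (log2 fold change 0.38, SE 0.0927, adjusted p = 0.0554 by edgeR). Mutant libraries of *Scarb1* were above controls, and DESeq2 called it (0.0101), as did the fit with the library run as a term (0.00648). *Dbi*, a ligand of TSPO, overlapped (0.053, SE 0.245, adjusted p = 0.947 by edgeR).

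Of the electron donors to *Cyp11a1*, *Fdx1* and *Fdxr* overlapped between the genotypes, at -0.021 (SE 0.161) and 0.087 (SE 0.207) on the log2 scale. The related *Fdx1l* did not, at 851 ± 58.0 normalized counts in controls and 709 ± 46.7 in mutants (-0.26, SE 0.0942, adjusted p = 0.180 by edgeR). Of the words of *Fdx1l*, 71.2% are shared with other genes, although its expected counts were whole in all 7 libraries. Pregnenolone is oxidised to progesterone by 3β-hydroxysteroid dehydrogenases, of which *Hsd3b2* had the most counts, from 336 to 625 normalized counts in controls and from 301 to 495 in mutants. Of the words of *Hsd3b2*, 34.7% are shared with other genes, and its expected counts were whole in 0 libraries. *Cyp17a1*, which leads from progestins to androgens, had at most 0.958 normalized counts in any library. Aromatase, *Cyp19a1*, was at 4.75 ± 4.72 in controls and 10.0 ± 4.74 in mutants with overlapping libraries and was not tested. These 2 genes thus had few counts beside *Hsd3b2*. Among the 17β-hydroxysteroid dehydrogenases, 5 were tested and overlapped, led by *Hsd17b12* at 2401 ± 182 in controls and 2716 ± 225 in mutants (0.18, SE 0.0896, adjusted p = 0.349 by edgeR).

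The sterol hydroxylase gene *Cyp46a1*, which makes the brain's main exported oxysterol, was the most abundant of its role, at 8003 ± 615 normalized counts in controls and 7450 ± 947 in mutants (log2 fold change -0.10, SE 0.107, adjusted p = 0.699 by edgeR). *Ch25h*, a cholesterol 25-hydroxylase, was at 25.5 ± 11.9 and 11.4 ± 3.38 (-1.16, SE 0.431, adjusted p = 0.197 by edgeR), with libraries that overlapped. *Sult2b1*, which encodes a sulfotransferase of cholesterol and pregnenolone, gave 299, 263, 179 and 201 normalized counts in controls and 546, 384 and 363 in mutants. Its mutant libraries were all above the controls (0.87, SE 0.213, adjusted p = 0.0558 by edgeR and 0.00315 by DESeq2).

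Receptors on which neurosteroids act made up most of the remaining list. *Gabrd*, the δ subunit of GABA-A receptors, was at 2191 ± 376 normalized counts in controls and 1461 ± 260 in mutants, with mutant libraries below the controls (log2 fold change -0.59, SE 0.164, adjusted p = 0.0873 by edgeR, 0.0127 by DESeq2 and 0.00378 with the run as a term). Markers of dentate granule cells, in which *Gabrd* is known to be high, summed to between 5206 and 6636 normalized counts in controls and between 3510 and 4464 in mutants, with 2 of 6 called lower and none at 0. Most of that difference was in *Calb1*, at 3478 ± 679 in controls and 1843 ± 426 in mutants, while *Prox1*, *C1ql2*, *Tdo2* and *Dsp* overlapped between the genotypes. The part of these cells in the values of *Gabrd* was not tested.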

How the data were processed

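Forebrain RNA of 7 pools was sequenced as 36 bp single-end reads from an Illumina TruSeq library. Per the submitters' processing notes, cutadapt 1.9.1, Bowtie2 2.2.9, RSEM 1.2.31 and DESeq2 were used with GRCm38. The authors aligned to the Ensembl transcriptome, and the deposited values are expected counts from RSEM, 1 per gene and library and not normalized. RSEM divides reads that match several genes, so close copies have less certain counts. The deposited comparison holds the authors' fold changes and p-values, of which only the gene symbols were used. Strandedness of the counting is not given in the sources used here.

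Expected counts were rounded. A gene entered the fit with 10 or more counts in 3 or more libraries. After TMM scaling, the genotypes were compared by edgeR 4.0.16 (R 4.3.3, quasi-likelihood F-test, no covariate, Benjamini-Hochberg over all genes tested, threshold 0.05). Alternatives were DESeq2 1.42.0, limma-voom (limma 3.58.1), RLE and upper quartile normalization, other filters, unrounded counts, the run of library numbers as a term, and each library left out. Columns show genotype and library number, so the RNA quality given in the sample labels could not be tied to a library. Sex and RNA quality of the pools thus entered no fit, and 0 library columns of the deposited counts were left unused. Libraries of a genotype differed by far more than sampling noise (chi-square per degree of freedom 9.96 to 70.8). Log2 CPM used a prior count of 2. Words of 36 bases were counted in GENCODE M21 transcripts, and promoters came from RefSeq (GRCm38.p6), whose table held a window for 6 of the 9 genes. The scripts were tested on simulated data. The 9 genes, the pathway list and the marker lists were chosen with earlier results of these data known. Genes named are the 9, pathway genes past the threshold or given as examples of a role, the 3 nearest in pattern to each called gene, genes that overlap or share words with the 9, *Lhx6* and the markers. Some genes of the pathway list are counted but not reported here by name.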

Additional observations from a re-analysis of the deposited data

Results flagged for a closer look

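Among the 9 genes, the lowest control library of *Cyp7b1* stood far from the other 3. Library 2 gave 283 normalized counts, and its gap to the next control library took up 0.830 of the whole control range, just over Dixon's 95% critical value for 4 samples. Chance flags about 1 in 20 groups. Mutant library 5, which shares the low run of library numbers, was the lowest of its genotype at 301. No explanation was tested.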

How the results depend on the processing

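Of 134 fits of the 9 genes under 15 alternatives, 121 kept direction and side of the threshold, 5 lost a call (all *Hsd11b1*), 3 gained one (all *Tspo*) and 5 changed sign. The causes were not tested. Sign changes were seen in genes that were not called, *Akr1c14* without control library 3 (0.054), *Srd5a1* (0.059) and *Cyp11a1* (-0.027) without mutant library 5, and *Cyp7b1* without control library 3 (0.012) or mutant library 5 (0.092). With a library left out, these 4 ran from -0.27 to 0.054, from -0.094 to 0.059, from -0.027 to 0.098 and from -0.17 to 0.092. Leaving out a library gave 1 to 2 called genes of the 9, 0 to 1 higher, with an adjusted p of *Hsd11b1* up to 0.104. Genes called higher numbered 2 with DESeq2, with the filter on all 7 libraries and with the run term, as *Tspo* joined (adjusted p 0.0448, 0.0469 and 0.0313). Genes called lower numbered 0 with the filter on all 7 libraries, which leaves out *Akr1c18*. In the pathway list, genes called higher numbered 3 with DESeq2, 3 with the run term, 1 with no filter, 1 with the filter on all 7 libraries and 0 to 2 with a library left out. Genes called lower numbered 3 with DESeq2, 7 with the run term and 0 to 1 with a library left out. Over all genes the run term called 2205 against 954, DESeq2 1696, and fits with a library left out 302 to 971. With the mean transcript length the control level moved by more than 1 SD for 8 of 9 genes. No paired analysis was possible because the columns carry a library number and no replicate number. Depth limits *Akr1c18* and *Akr1c13*, which rest on few counts.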
